A study of Homo sapiens with 4 samples.

Results

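Chromosome 19 carries a dense collection of genes for zinc finger proteins. The members described are the protein-coding genes whose symbol is ZNF followed by a number and that GENCODE 29 places on chromosome 19, 251 of the 58051 genes counted. Of these, 85 lie on the short arm (19p) and 166 on the long arm (19q), with the arms split at 26 Mb in hg38. Counts per gene came from polyA RNA of A549, an established lung carcinoma cell line, in which a doxycycline-inducible A-Fos gene had been integrated with piggyBac. All 4 libraries carry that gene: 2 were untreated (minus Dox) and 2 received doxycycline at 1 µg/mL (plus Dox), which switches A-Fos on. The study's title concerns binding of FOXA1 and AP-1, and A-Fos is a dominant-negative FOS that pairs with JUN proteins and keeps them off DNA. The sample titles call the line an AFos knock-in and do not give the site of insertion. The labels also leave unsaid whether the line is 1 clone and whether replicate libraries stem from separate cultures. The p-values below thus reflect how much these particular libraries scatter, and that scatter may be technical. Doxycycline itself and A-Fos cannot be told apart.

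A typical protein of this family carries a string of zinc fingers, each of which reads a few bases of DNA, and many family members silence transposable elements. At the front of most of them sits a KRAB box, which recruits the co-repressor TRIM28. TRIM28 in turn brings the histone methyltransferase SETDB1 and heterochromatin proteins, so that chromatin around the bound site is closed. The genes arose by repeated tandem duplication, which left them in long runs of relatives with similar sequence. From the GENCODE coding sequences, 193 of the 251 proteins matched a KRAB core pattern (L-Y, any 2 residues, V-M, any residue, E), 72 of 85 on 19p and 121 of 166 on 19q, and the median number of finger patterns was 12 on either arm. In 22 members over 25% of the 50-base words of their transcripts also occur in transcripts of another gene, and in 25 members over 25% of exon bases overlap another gene on either strand. Counts of those members are uncertain, since reads may have been split or dropped and the strand setting of the counting is not given in the sources used here.

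To set members of an arm with opposite fold changes side by side, 4 upstream sequences are shown. They belong to the largest rise and the largest fall on each arm among the named genes (at least 1 CPM in the higher group). Only genes with an entry in the RefSeq promoter table were eligible. Each sequence is the 250 bases before the RefSeq start in GRCh38.p14, on the strand of the gene, with CG dinucleotides in capitals. RefSeq starts can lie inside the longer GENCODE gene.
ZNF493, rise on 19p, chr19:21396883-21397132, plus strand: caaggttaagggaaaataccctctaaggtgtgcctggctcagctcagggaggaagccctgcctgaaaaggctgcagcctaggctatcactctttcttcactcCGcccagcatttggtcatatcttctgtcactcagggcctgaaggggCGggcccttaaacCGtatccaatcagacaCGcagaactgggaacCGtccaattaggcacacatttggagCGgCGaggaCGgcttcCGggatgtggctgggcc
ZNF43, fall on 19p, chr19:21836183-21836432, minus strand: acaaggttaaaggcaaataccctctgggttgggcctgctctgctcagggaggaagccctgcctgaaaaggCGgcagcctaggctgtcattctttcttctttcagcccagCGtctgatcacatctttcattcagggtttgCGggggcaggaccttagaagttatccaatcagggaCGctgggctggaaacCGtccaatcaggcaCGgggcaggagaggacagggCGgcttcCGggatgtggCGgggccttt
ZNF404, rise on 19q, chr19:43883965-43884214, minus strand: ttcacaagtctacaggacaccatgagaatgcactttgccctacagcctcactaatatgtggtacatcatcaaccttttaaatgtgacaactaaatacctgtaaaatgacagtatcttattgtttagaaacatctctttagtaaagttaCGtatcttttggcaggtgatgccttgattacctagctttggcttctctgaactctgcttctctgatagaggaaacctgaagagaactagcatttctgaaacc
ZNF575, fall on 19q, chr19:43532938-43533187, plus strand: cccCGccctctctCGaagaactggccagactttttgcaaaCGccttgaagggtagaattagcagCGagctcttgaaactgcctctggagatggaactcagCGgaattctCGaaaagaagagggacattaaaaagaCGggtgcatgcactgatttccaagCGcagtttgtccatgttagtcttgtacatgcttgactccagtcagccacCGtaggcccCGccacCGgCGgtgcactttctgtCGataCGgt
The ZNF493 and ZNF43 sequences were 78.6% identical in a global alignment, against 45.9% to 49.3% for the other 5 pairs among these genes. ZNF43 was also compared with 28 other members of its run, and 24 of these were over 60% identical to it (median 78.3%, range 48.4% to 82.7%). Among the similar sequences are those of ZNF254 (76.0%) and ZNF91 (80.6%), which rose, and ZNF85 (80.2%) and ZNF257 (82.2%), which had 0 counts in all 4 libraries.

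The AP-1 motif was looked for as TGACTCA or TGAGTCA, which are each other's reverse complement, in the table's windows from 250 bases before to 50 after the start. The table held 219 of the 251 members with 271 windows, and 6 of these windows (2.21%) contained the motif, against 1738 of 35116 windows of all genes (4.95%). None of the 79 windows of 19p members contained it. Motifs are in capitals below, with up to 20 bases on either side, for the 5 tested members that have one.
ZNF260, higher with doxycycline, chr19:36528390-36528436, minus strand: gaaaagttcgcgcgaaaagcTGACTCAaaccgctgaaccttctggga
ZNF576, not passed, chr19:43596248-43596294, plus strand: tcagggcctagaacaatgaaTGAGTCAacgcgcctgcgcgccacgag
ZNF222, higher, chr19:44025349-44025378, plus strand: tttcatttaccacagtagttTGAGTCAttt
ZNF235, higher, chr19:44305136-44305182, minus strand: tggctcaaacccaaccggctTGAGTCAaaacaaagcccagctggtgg
ZNF331, lower, chr19:53537182-53537228, plus strand: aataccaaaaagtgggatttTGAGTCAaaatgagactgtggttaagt
Of these, 3 rose, 1 fell and 1 did not pass, where 28.4% of all tested genes rose and 28.4% fell. By gene, the motif was found in 3 of 44 members that rose (6.82%) and 1 of 28 that fell (3.57%). Among all genes of the table it was 6.05%. The median window of members held 20 CG dinucleotides, 16 on 19p and 22 on 19q, against 14 in all windows. A match describes these letters only.

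Total counts ranged from 31104964 to 40526912 per library, and where a gene has 0 counts its level may still reach 0.0800 to 0.0894 CPM (counts scaled to TMM-adjusted library size, with 3 counts as the limit and counting error only). Reads counted to FOS, which may include A-Fos, rose from 1.36 and 1.52 CPM to 48.6 and 51.0 CPM. Of 6 epithelial markers, KRT8, KRT18, KRT7, KRT19 and EPCAM were lower in plus Dox and CDH1 did not pass. KRT7 went from 4445 and 4643 CPM to 528 and 524 CPM, KRT8 and KRT18 stayed above 2105 CPM in each library, and EPCAM was at 1.90 to 3.55 CPM. The highest value in a library of the leukocyte markers PTPRC, CD3E and LYZ was 0.227 CPM, and CD3E was at 0. For the endothelial markers PECAM1, VWF and CDH5 it was 1.09 CPM, with VWF higher and the other two lower in plus Dox. The fibroblast markers COL1A2, COL3A1 and PDGFRB reached 1.56 CPM at most, and COL1A1 was at 34.3 to 43.7 CPM. The part of these shifts in the results on members was not tested. In bulk RNA, fewer cells of a type and less RNA per cell cannot be told apart.

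Most chromosome 19 ZNF genes were expressed at a low level, and the arms differed in how many were. A filter on low counts kept 188 of the 251 members (74.9%): 145 of 166 on 19q and 43 of 85 on 19p. Of the 63 members that were not tested, 29 had 0 counts in all 4 libraries (23 on 19p and 6 on 19q). None of the 63 exceeded 0.238 CPM on average. Of all 19737 protein-coding genes 70.75% were tested, and 2699 had 0 counts in all 4 libraries. A mean of 10 CPM or more was reached by 12 members on 19p and 85 on 19q, and 50 CPM by 0 and 9. The median tested member stood at 4.46 CPM on 19p and at 11.5 CPM on 19q, against 27.5 CPM for all tested protein-coding genes. Members that passed the filter only through the group where they are high are among the 188.

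Members with few or no reads lay next to each other. Members were placed in 16 runs, a new run beginning wherever 2 neighbouring starts were more than 1 Mb apart. In the run from ZNF653 to ZNF791, 13 consecutive members from ZNF441 to ZNF625 (chr19:11767000-12156731, 0.390 Mb) were untested, and 11 of them had 0 counts in every library. The counts of these 13 genes summed to 8 and 5 without doxycycline and to 5 and 1 with it. The genes on either side of them were expressed, ZNF823 at 7.31 and 6.64 CPM in minus Dox and 4.74 and 5.61 CPM in plus Dox, and ZNF136 at 3.82, 3.04, 5.65 and 3.61 CPM in the same order. A second stretch of 10 consecutive members, from ZNF208 to ZNF730 (1.21 Mb), held 2, 2, 1 and 0 counts. By contrast, 24 of 24 members from ZNF575 to ZNF296, 26 of 27 from ZNF565 to ZNF573 and 57 of 60 from ZNF628 to ZNF446 were tested. All these stretches, and the flanking genes named, were singled out after their values were seen.

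**Figure D1:**
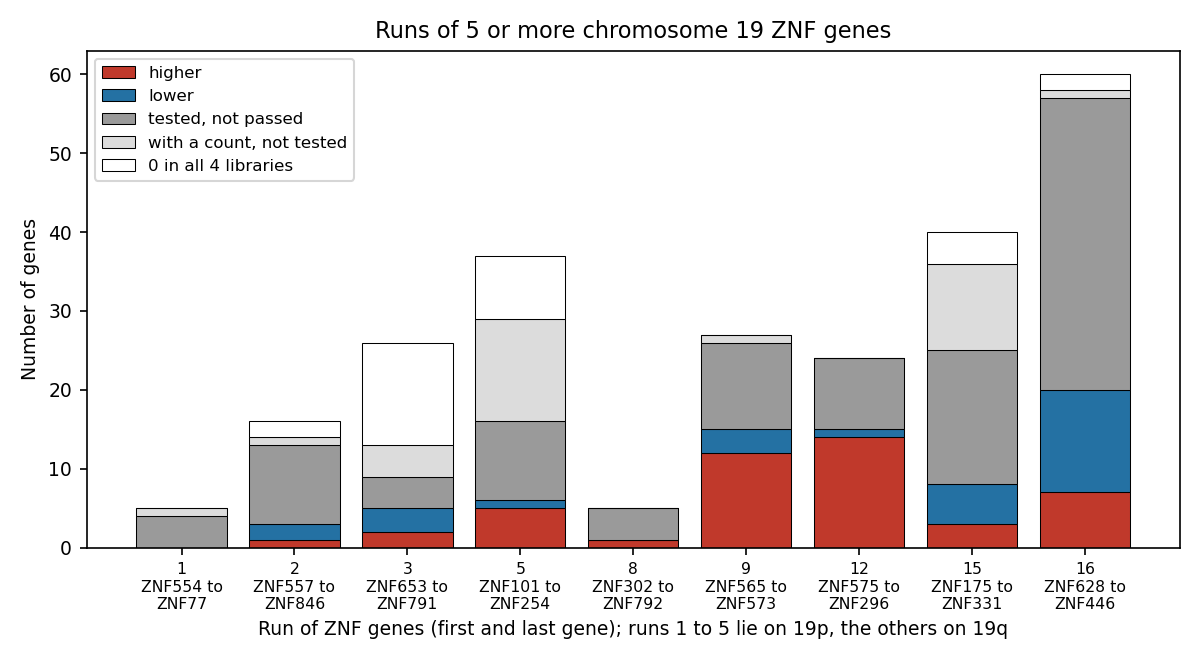
Number of chromosome 19 ZNF genes (vertical axis) in each run of 5 or more, stacked by outcome: higher or lower in plus Dox, tested but not past the threshold, with a count but not tested, and 0 in all 4 libraries. The 37 genes from ZNF101 to ZNF254 include 21 that were not tested, while all 24 from ZNF575 to ZNF296 were.

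The most abundant member in CPM was ZNF146, which encodes a protein made of fingers with no KRAB box. It had 230.5 and 209 CPM in minus Dox and 202 and 194 CPM in plus Dox, and it was also the highest per kilobase of exon, at 50.4 CPM per kb over the 4 libraries. Next came ZNF574 (83.7 and 90.8 CPM in minus Dox, 69.9 and 71.5 CPM in plus Dox), ZNF580 (76.0 and 81.1, then 76.2 and 70.9 CPM) and ZNF507 (67.8 and 63.3, then 81.3 and 78.1 CPM). None of these 4 matched the KRAB pattern. ZNF507 rose (log2 fold change 0.28), ZNF574 and ZNF146 fell (−0.30 and −0.15), and ZNF580 was at −0.10, which missed the threshold. ZNF146 lay at 0.07 when libraries were scaled by their size only, and its fall did not pass without plus Dox replicate 2 (edgeR adjusted p = 0.128). ZNF507 did not pass once the trend with GC content was removed (0.03). ZNF574 did not pass with library size only (−0.09), and ZNF580 passed as lower without minus Dox replicate 1 (−0.15, edgeR adjusted p = 0.00939) and as higher with library size only (0.12, 0.0497).

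With doxycycline, 49 of the 188 tested members were higher and 31 lower, and 108 did not pass, at a Benjamini-Hochberg adjusted p of 0.05 over 18046 tested genes (quasi-likelihood test of edgeR). That is 26.1% higher and 16.5% lower, against 28.4% higher and 28.4% lower of all tested genes, and 42.6% called in all, against 56.9%. Of tested protein-coding genes, the type to which all members belong, 33.6% were higher and 31.9% lower, 65.5% in all. The median log2 fold change of members was 0.06 (interquartile range −0.16 to 0.34), against 0.00 over all tested genes. It was 0.03 without plus Dox replicate 2 and −0.02 with the GC trend removed. Only 5 members both passed and changed at least 2-fold, ZNF114 downward and ZNF404, ZNF223, ZNF493 and ZNF540 upward. In 121 members (64.4%) the treated and untreated libraries did not overlap, against 77.0% of all tested genes and 82.3% of tested protein-coding genes. Summed over all 251 members the level was 2837 and 2814 CPM in minus Dox and 2822 and 2817 CPM in plus Dox.

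The split into higher and lower depended on the scaling. Of the called members 61.2% were higher with TMM scaling, against 50.0% of all called genes. With library size only, 85 members were higher and 12 lower, so that 87.6% of those called were higher, against 72.9% of all called genes (59.8% of tested genes were called). With the GC trend removed, 29 were higher and 38 lower, a share of 43.3% against 48.7% (53.2% called). With the GC, length and abundance trends removed, 23 were higher and 45 lower, a share of 33.8% against 54.1% (52.2% called). DESeq2 called 36 higher and 25 lower, where 47.8% of all tested genes were called, and a replicate block 51 and 33, where 57.7% were. Without minus Dox replicate 1 it was 47 and 38 and without replicate 2 it was 39 and 31, where 53.3% and 50.6% of tested genes were called. Without plus Dox replicate 1 it was 40 and 24 and without replicate 2 it was 42 and 29, where 44.9% and 45.5% were. Library size only moved the median of all tested genes to 0.22 on the log2 scale and that of the members to 0.27.

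The largest fall belonged to ZNF114, a KRAB gene with a short array of 3 finger patterns (chr19:48270102-48287608, 19q). It had 28.6 and 31.7 CPM without doxycycline and 6.36 and 6.09 CPM with it. Both treated libraries lay far below both untreated ones, a 4.84-fold fall (log2 fold change −2.28, SE 0.10, edgeR adjusted p = 7.24e-21). It lay between −2.36 and −2.06 under all settings tried. No other member fell 2-fold.

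ZNF43, a long finger array gene of the 19p run from ZNF101 to ZNF254 (chr19:21804949-21852125), came next, with 9.35 and 9.76 CPM in minus Dox and 3.95 and 6.12 CPM in plus Dox. The groups did not overlap, but the treated libraries differed from each other (log2 fold change −0.93, SE 0.15, edgeR adjusted p = 1.20e-06). Among the KRAB genes on 19q, ZNF766 fell from 30.1 and 29.6 CPM to 18.5 and 19.3 CPM, ZNF71 from 26.9 and 27.1 CPM to 18.4 and 17.5 CPM, and ZNF132 from 5.35 and 5.52 CPM to 3.35 and 3.76 CPM. Their log2 fold changes were −0.66, −0.59 and −0.61. Falls without a KRAB pattern were those of ZNF575, from 2.96 and 3.07 CPM to 2.05 and 1.52 CPM, and of ZNF581, from 25.1 and 28.1 CPM to 16.3 and 17.7 CPM, which shares 23.4% of its exon bases with another gene. ZNF443 on 19p went from 2.90 and 3.63 CPM to 2.10 and 2.21 CPM, and 37.7% of its 50-base words occur elsewhere. The ZNF575 fall did not pass without plus Dox replicate 2 (edgeR adjusted p = 0.0719). That of ZNF443 did not pass without minus Dox replicate 2 (0.159) or plus Dox replicate 1 (0.0593), with library size only (0.115) or in DESeq2 (0.0919).

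Among the rises, ZNF404 (chr19:43872363-43901385, 19q, KRAB) went from 1.24 and 1.15 CPM to 2.93 and 3.34 CPM, a 2.62-fold rise (log2 fold change 1.39, SE 0.24, edgeR adjusted p = 6.04e-06). In the same run ZNF223 and ZNF284 rose from 0.976 and 1.09 CPM to 2.33 and 2.60 CPM and from 1.92 and 2.19 CPM to 4.29 and 3.58 CPM. These genes share 45.4% and 43.9% of their exon bases with another gene, so both counts are uncertain. ZNF254, in the same 19p run as ZNF43, was higher in both treated libraries than in both untreated ones, from 14.1 and 13.4 CPM to 25.03 and 26.1 CPM (log2 fold change 0.89, SE 0.08, edgeR adjusted p = 2.45e-11). ZNF780B, from a run of 3 genes on 19q, rose from 14.5 and 13.0 CPM to 25.03 and 21.9 CPM.

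The other 3 of the 8 largest rises were those of ZNF493, ZNF582 and ZNF28. ZNF493 on 19p went from 0.769 and 0.800 CPM to 1.48 and 2.03 CPM, ZNF582 from 2.10 and 1.92 CPM to 3.69 and 3.43 CPM, and ZNF28 from 2.93 and 2.85 CPM to 3.92 and 6.06 CPM. For ZNF493 and ZNF28 plus Dox replicate 2 was the higher treated library, and neither passed without it (edgeR adjusted p = 0.0698 and 0.107). ZNF493 and ZNF254 also did not pass with the GC trend removed (log2 fold changes 0.46 and 0.19, edgeR adjusted p = 0.236 and 0.0531). ZNF540, named after its value was seen, had the highest fitted value of all members (1.53) but stood at only 0.473 and 0.160 CPM in minus Dox and 0.767 and 1.04 CPM in plus Dox.

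**Figure D2:**
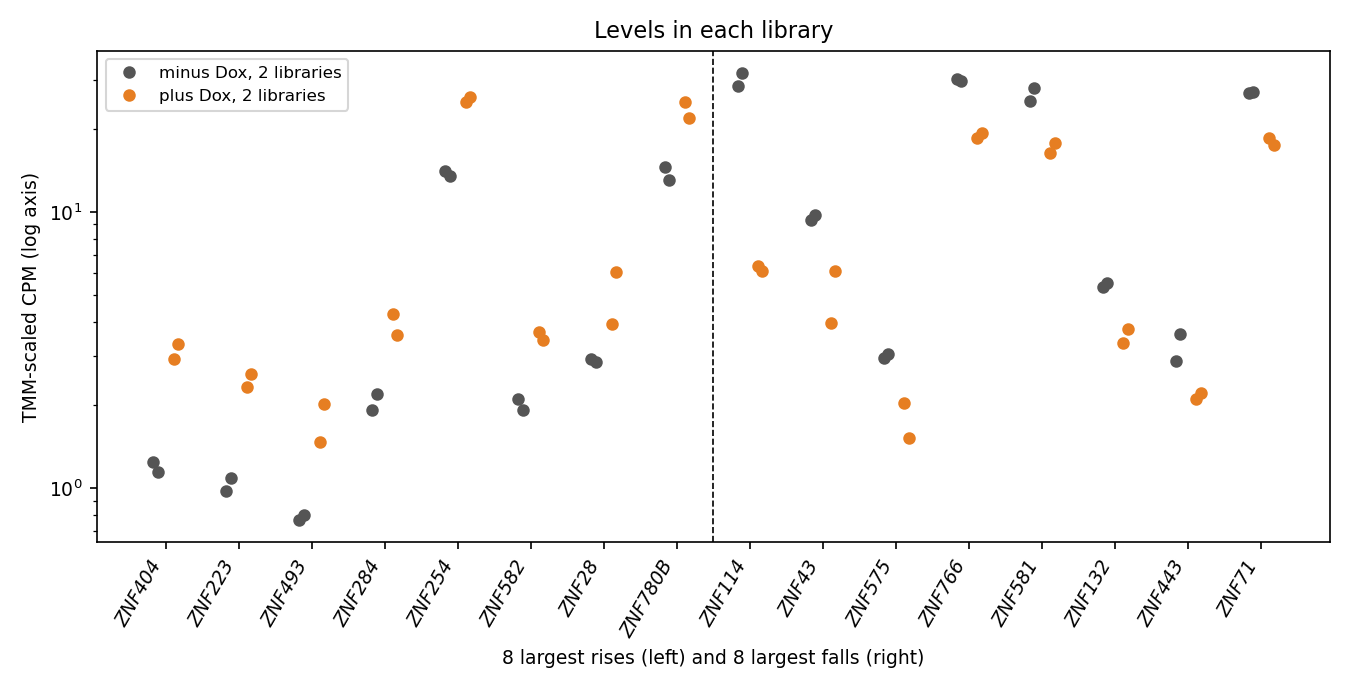
TMM-scaled CPM (log axis) of the 8 members with the largest rises and the 8 with the largest falls, as points for the 2 minus Dox and the 2 plus Dox libraries. The groups are separate for each gene because genes were selected for it. ZNF114 falls from 28.6 and 31.7 to 6.36 and 6.09 CPM, and the other genes move less.

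Between the arms, 41 of 145 tested 19q members rose and 25 fell (28.3% and 17.2%) by the same edgeR fit. On 19p, 8 of 43 tested members rose and 6 fell (18.6% and 14.0%). Over all tested genes it was 28.4% each way, and of tested protein-coding genes 33.6% rose and 31.9% fell. With library size only it was 70 and 11 on 19q and 15 and 1 on 19p, with the GC trend removed 27 and 30 and 2 and 8, and with all 3 trends removed 21 and 36 and 2 and 9. The median log2 fold change was 0.06 on 19q and −0.02 on 19p, and the interquartile ranges ran from −0.16 to 0.36 and from −0.18 to 0.30. Those ranges overlapped, and genes are not replicates, so no test of the arms was made. The 19p counts rest on few genes: without minus Dox replicate 2 only 5 rose, without plus Dox replicate 1 only 3 fell, and the 19p median turned positive, between 0.01 and 0.14, when any 1 library was left out. Summed over the arm, 19p members held 375 and 361 CPM in minus Dox and 371 and 381 CPM in plus Dox, and 19q members 2462.5 and 2453 CPM and then 2451 and 2436 CPM.

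Runs within an arm had medians further apart than the arms did. The run of 24 genes from ZNF575 to ZNF296, on 19q, had 14 members higher and 1 lower (58.3% and 4.17%, against 28.4% each way over all tested genes), with a median of 0.33. Counts in the runs that follow are to be read against the same 28.4% where no other setting is named. For tested protein-coding genes the shares were 33.6% higher and 31.9% lower. Scaling by library size alone called 7865 of all 18046 tested genes higher and 2925 lower. Once the GC trend was taken out, 4683 of them rose and 4925 fell. Members of the run from ZNF575 to ZNF296 included ZNF224 (12.1 and 11.8 CPM to 17.8 and 17.9 CPM). That gene encodes a KRAB repressor known for acting on the aldolase A gene. ZNF224 shares 40.5% of its exon bases with another gene. ZNF222, ZNF235, ZNF112 and ZNF283, named after their values were seen, rose by 0.68, 0.61, 0.56 and 0.48 on the log2 scale. Between ZNF283 and ZNF180, end points set after the values were seen, 14 members rose and none fell by the test. ZNF285 had the lowest value there, −0.18. These end points leave out ZNF575, which fell, and ZNF576, ZNF428 and ZNF296, which did not pass. Of those that rose, ZNF155, ZNF223, ZNF284 and ZNF224 overlap another gene over more than 25% of their exon bases. The 1 that fell, ZNF575, lies at the start of the run and carries no KRAB pattern. Summed over the run the level was 282 and 278 CPM in minus Dox and 331 and 327 CPM in plus Dox.

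The run of 26 tested genes from ZNF565 to ZNF573, also on 19q, had 12 higher and 3 lower (46.2% and 11.5%), with a median of 0.32. ZNF585A rose from 11.1 and 10.9 CPM to 16.99 and 17.8 CPM, and ZNF529, named after its value was seen, from 12.1 and 11.6 CPM to 18.9 and 17.4 CPM. The 3 that fell were ZNF146, ZNF875 and ZNF607, with log2 fold changes of −0.15, −0.19 and −0.37. All 3 members of the short run that holds ZNF780B rose, ZNF546 by 0.41, ZNF780B by 0.77 and ZNF780A by 0.61.

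Elsewhere on 19q the picture was mixed. From ZNF175 to ZNF331, 3 of 25 tested members rose and 5 fell (median −0.09), and 7 and 2 with library size only (median 0.13). ZNF160, ZNF480 and ZNF331, an imprinted gene, fell there along with ZNF766, at −0.50, −0.27 and −0.26, while ZNF614 and ZNF432 rose by 0.50 and 0.37 (these 5 were named after their values were seen). From ZNF628 to ZNF446, at the end of the long arm, 7 of 57 rose and 13 fell (median −0.04). With library size only 18 of these rose and 6 fell (median 0.18), and with the GC trend removed the median was 0.02. The finger gene ZNF274, which binds the coding ends of other ZNF genes and recruits SETDB1 there, lies in that run and had 42.1 and 44.5 CPM in minus Dox and 42.9 and 40.5 CPM in plus Dox. Its groups overlapped and it did not pass (edgeR adjusted p = 0.483), but it passed as higher with library size only (0.16, edgeR adjusted p = 0.0282).

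On 19p, the run of 16 tested genes from ZNF101 to ZNF254 had 5 higher and 1 lower (ZNF43), with a median of 0.23, but 0 higher and 3 lower with the GC trend removed. ZNF91, which silences SVA retrotransposons, rose there from 2.57 and 2.40 CPM to 3.64 and 3.55 CPM, ZNF714 from 12.9 and 12.3 CPM to 19.8 and 18.8 CPM, and ZNF431 from 8.37 and 10.8 CPM to 10.7 and 13.3 CPM, where the groups overlap; these 3 were named after their values were seen. The 9 tested members from ZNF653 to ZNF791 had 2 higher and 3 lower (median −0.17), and 2 and 0 with library size only (median 0.05). ZNF791 rose from 17.2 and 13.7 CPM to 19.8 and 19.9 CPM but did not pass without minus Dox replicate 2 (edgeR adjusted p = 0.0983). From ZNF557 to ZNF846, 1 of 13 rose and 2 fell (median −0.11), and 4 and 0 with library size only (median 0.11); the rise was that of ZNF121, from 20.1 and 19.3 CPM to 24.7 and 25.8 CPM. It did not pass with the GC trend removed (0.17, edgeR adjusted p = 0.0716). Of the 5 genes from ZNF302 to ZNF792, on 19q, 1 rose, ZNF302, from 39.3 and 35.5 CPM to 43.5 and 41.6 CPM. Its direction turned to −0.24 with the GC trend removed (edgeR adjusted p = 0.00230), and it did not pass in DESeq2 (0.0667), without minus Dox replicate 2 (0.226) or without plus Dox replicate 1 (0.192).

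**Figure D3:**
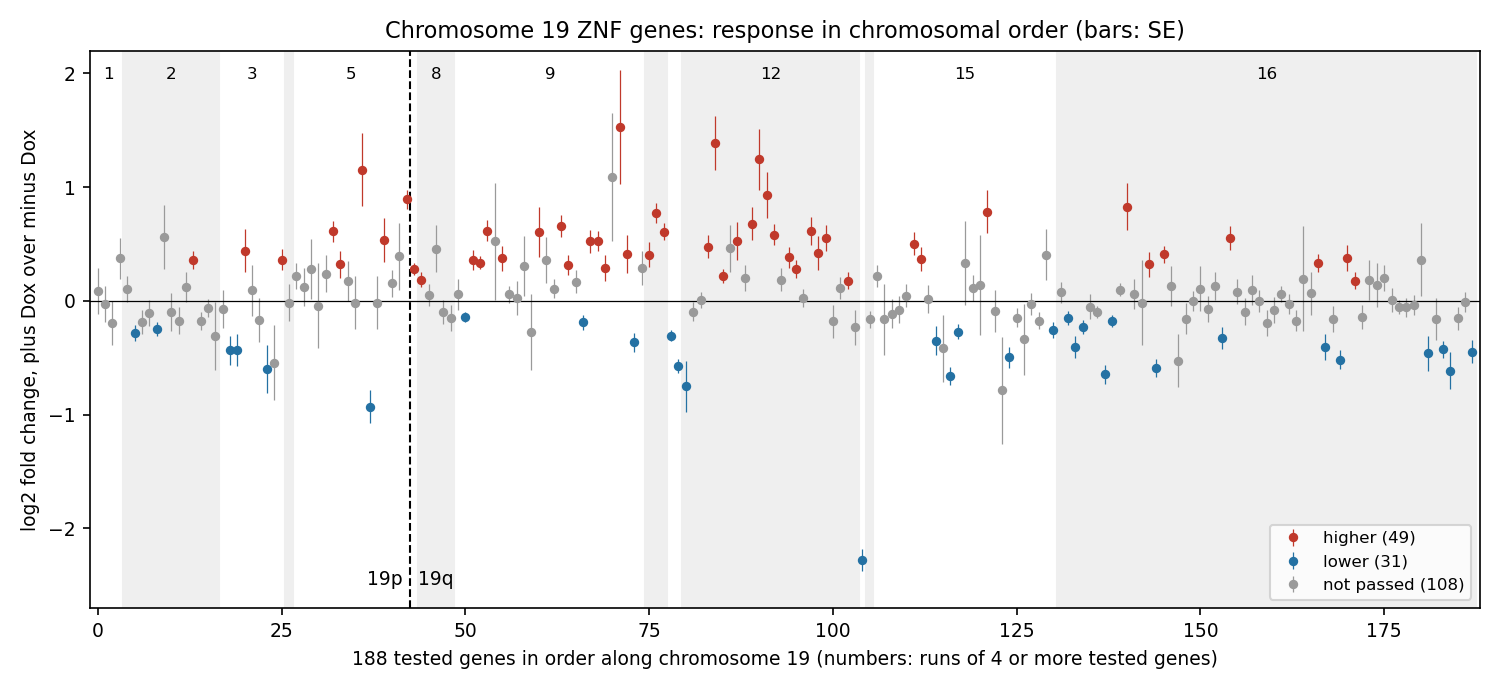
Log2 fold change of plus Dox over minus Dox (vertical axis, bars are the SE) for the 188 tested members in their order along chromosome 19, with runs shaded in turn and the arms parted by a dashed line. Red points cluster in the runs numbered 9 (ZNF565 to ZNF573; 12 higher, 3 lower) and 12 (ZNF575 to ZNF296; 14 higher, 1 lower), and the lowest point is ZNF114 at −2.28.

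Neighbouring tested members of a run had the same sign of fold change in 112 of 173 pairs (64.7%). For neighbouring tested protein-coding genes over all chromosomes it was 7896 of 13940 (56.6%), and for chromosome 19 genes other than members 461 of 851 (54.2%). Members of a run resemble each other in sequence and base composition, so these pairs are not independent.

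Fold changes differed with the base composition of the transcript. Tested members had a median GC content of 42.7%, against 48.9% for all tested protein-coding genes and 60.2% for the other genes of chromosome 19. In the lowest 3 of 10 equal-sized GC bands set on all tested protein-coding genes (up to 43.3% GC), 44 of 104 members rose and 9 fell, with a median log2 fold change of 0.22. Of the 4085 other protein-coding genes in that range 58.1% rose and 14.9% fell, with a median of 0.30. In bands 4 to 6, 5 of 60 members rose and 10 fell (8.33% and 16.7%, median −0.03). Of the other genes there 26.7% rose and 36.6% fell (median −0.05). In the highest 4 bands 0 of 24 members rose and 12 fell (50.0%), with a median of −0.18. Of the other genes in those bands 21.0% rose and 41.3% fell (median −0.12). Of the 49 members that rose, 44 had low GC, and 9 of the 31 that fell did. Across the 188 members Spearman's rho of fold change with GC was −0.50 (Pearson −0.40), and across 13776 other protein-coding genes −0.29 (Pearson −0.17). Genes are not independent, and those of a run share base composition.

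**Figure D4:**
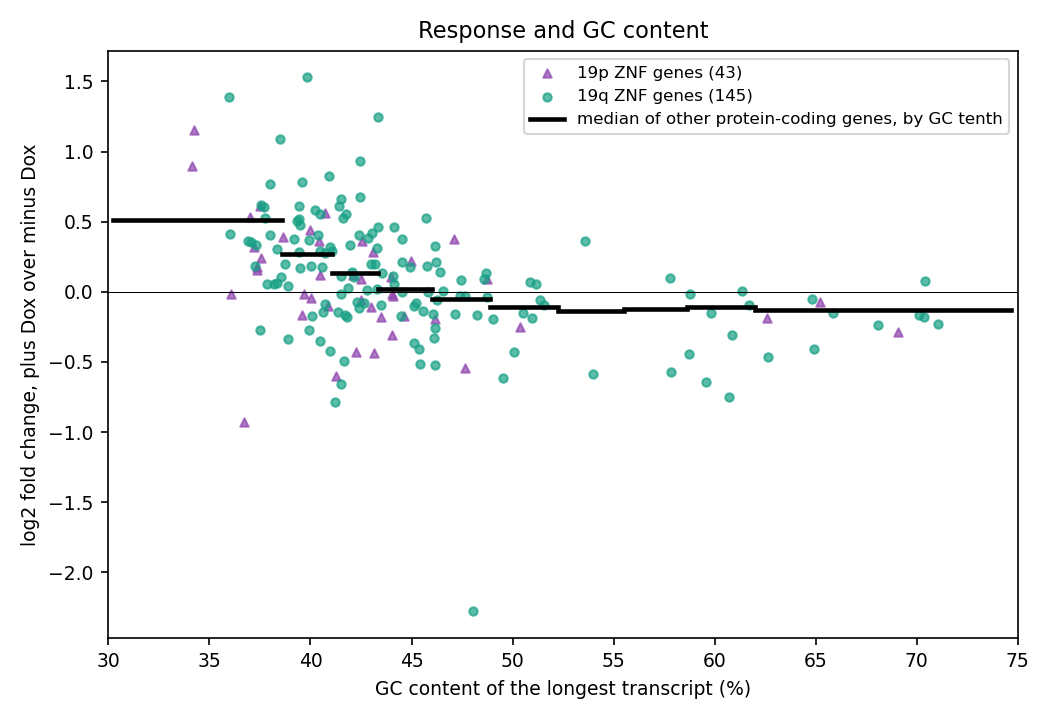
Log2 fold change of plus Dox over minus Dox against the GC content of the longest transcript for 43 tested 19p members (triangles) and 145 tested 19q members (circles), with the median of other protein-coding genes in each of 10 GC bands as black lines. Members scatter around the lines, from a median of 0.51 for other genes in the lowest band to −0.13 in the highest.

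Within the low GC range 36 of 76 19q members rose and 5 fell (median 0.29), and 8 of 28 19p members rose and 4 fell (median 0.14). Measured against other protein-coding genes of the same GC band, the median member lay at −0.04 on the log2 scale, with 84 of 188 above and 104 below. On 19p it lay at −0.15 (15 above and 28 below) and on 19q at −0.02 (69 above and 76 below). The runs with high medians differed on this scale. Members from ZNF575 to ZNF296 lay at 0.23 relative to their GC band at the median (17 of 24 above), those from ZNF565 to ZNF573 at −0.03 (13 of 26 above) and those from ZNF101 to ZNF254 at −0.17 (7 of 16 above). With the GC trend removed in the edgeR fit, the median of ZNF575 to ZNF296 was 0.26 (11 higher, 1 lower), that of ZNF565 to ZNF573 0.03 (4 higher, 4 lower) and that of ZNF101 to ZNF254 −0.09 (0 higher, 3 lower). ZNF114 was at −2.17 in that fit.

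**Figure D5:**
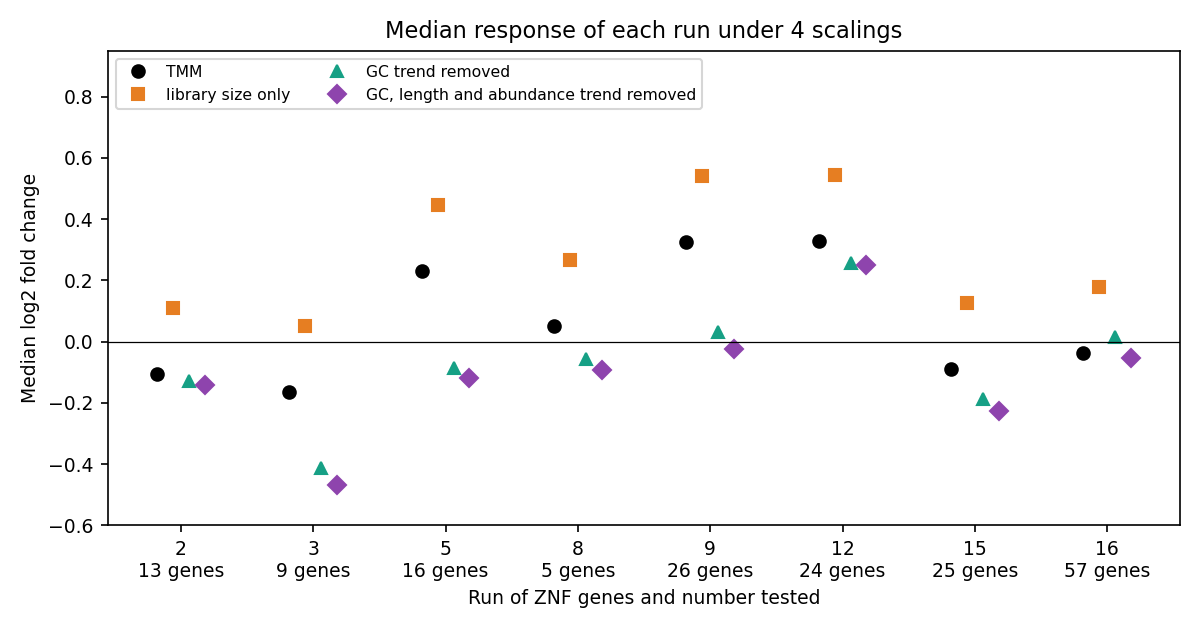
Median log2 fold change (vertical axis) of each run with at least 5 tested members under 4 scalings: TMM, library size only, GC trend removed, and GC, length and abundance trends removed. Run 12 (ZNF575 to ZNF296) lies between 0.25 and 0.55 under all 4, while run 9 (ZNF565 to ZNF573) goes from 0.32 with TMM to 0.03 and −0.02 with trends removed.

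The share of members called grew with abundance. In the lowest 3 of 10 abundance bands 27.5% of 91 members were called, against 47.6% of other protein-coding genes there. In bands 4 to 6 it was 53.6% of 84 members against 68.3%, and in the highest 4 bands 76.9% of 13 members against 77.3%. Median log2 fold changes of members were 0.09, 0.05 and −0.15 in these 3 ranges, and those of other genes 0.18, 0.06 and −0.07. Spearman's rho of fold change with mean log2 CPM was −0.17 across members (Pearson −0.21) and −0.20 across other protein-coding genes (Pearson −0.19). With exon length it was 0.33 across members and 0.09 across other protein-coding genes. Across members it was 0.15 with the number of finger patterns and 0.02 with the share of repeated 50-base words. Low counts were more common on 19p, where 31 of 43 tested members lay in the lowest 3 abundance bands, against 60 of 145 on 19q.

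Members with the KRAB pattern had a higher median than those without it, and the sign of each median depended on the scaling. A protein without a match to this exact pattern may still carry a KRAB box. Of 141 tested members with the pattern 42 rose and 16 fell (29.8% and 11.3%, median 0.11). Of 47 without it 7 rose and 15 fell (14.9% and 31.9%, median −0.09). Over all tested genes it was 28.4% each way, and of tested protein-coding genes 33.6% rose and 31.9% fell. Median GC was 42.0% with the pattern and 51.2% without it. With the GC trend removed the medians were 0.02 and −0.09, with 27 higher and 22 lower among members with the pattern and 2 higher and 16 lower among those without it. With library size only both medians were positive (0.33 and 0.12), with 68 higher and 7 lower and with 17 higher and 5 lower. With all 3 trends removed both were negative (−0.07 and −0.10), with 20 higher and 31 lower and with 3 higher and 14 lower. Of all 18046 tested genes, 4683 were higher and 4925 lower with the GC trend removed. With library size only it was 7865 and 2925, and with all 3 trends removed 5096 and 4316. ZNF genes on other chromosomes, of which 233 were tested, had 60 higher and 54 lower (25.8% and 23.2%; median 0.02). Other protein-coding genes of chromosome 19 had 192 of 852 higher and 313 lower (22.5% and 36.7%; median −0.08). These sets are given side by side, with no test between them.

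Of 32 genes listed for the silencing machinery that KRAB proteins recruit, all were tested, and 10 rose, 13 fell and 9 did not pass (median −0.04), where 56.9% of all tested genes and 65.5% of protein-coding genes were called. TRIM28, the shared co-repressor and itself a chromosome 19 gene, went from 968 and 1001.5 CPM to 764 and 792 CPM (log2 fold change −0.34, SE 0.03, edgeR adjusted p = 7.43e-11). That fall turned to 0.17 with the abundance trend removed and to 0.15 with the GC, length and abundance trends removed, and both passed. SETDB1, the histone methyltransferase, had 48.2 and 50.5 CPM in minus Dox and 47.8 and 46.3 CPM in plus Dox and did not pass (edgeR adjusted p = 0.341), but passed as higher with library size only (0.15, edgeR adjusted p = 0.0341). Its partner ATF7IP rose from 61.8 and 62.3 CPM to 90.0 and 85.5 CPM. The remodelling enzyme SMARCAD1 rose from 52.4 and 45.5 CPM to 73.2 and 72.8 CPM, and the TRIM28 relative TRIM33 from 42.0 and 41.6 CPM to 60.9 and 58.3 CPM. UHRF1, which guides maintenance DNA methylation, fell from 86.9 and 94.8 CPM to 52.0 and 48.8 CPM, and CHD3, a subunit of the NuRD complex that binds TRIM28, from 528 and 561 CPM to 397 and 384 CPM. SMARCAD1 and CHD3 no longer passed once trends with GC, length and abundance were taken out (0.06 and −0.07), nor did SMARCAD1 with the GC trend alone taken out (0.04). With library size only 19 of the 32 rose and 5 fell.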

How the data were processed

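Gene counts of 4 polyA RNA libraries were analysed. Each deposited file gives whole read counts of 1 library by Ensembl ID, which the authors had not normalized, judging by the values. Per the submitters' processing notes, DRAGEN, cutadapt 4.0, STAR 2.7.10b, featureCounts 2.0.3, DESeq2 2.11.40.7 and hg38 were used, with no role given. Annotation release and strand setting: not given in the sources used here. Of 58051 IDs, 57447 matched GENCODE 29 (positions, types, exon lengths, transcripts) and 56948 the table of current symbols. Promoters came from RefSeq (GRCh38.p14), and finger and KRAB patterns from translated GENCODE coding sequences. Total counts were 31104964 to 40526912 per library.

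All further values were computed in R 4.3.3 from the counts. Genes passing edgeR's filterByExpr (18046) were scaled by TMM and tested for group with the quasi-likelihood functions of edgeR 4.0.16, and p-values were adjusted over every tested gene (Benjamini-Hochberg, 0.05). Alternatives were DESeq2 1.42.0, other scalings and filters, a replicate block, each library left out, and members with shared sequence left out. CPM is TMM-scaled, SEs are the fold change over the square root of the test's F, and GC content is that of the longest GENCODE transcript. Trends with GC, length and abundance were fitted over tested genes with mgcv 1.9.3 and entered as offsets; 17974 of the tested genes had the values needed. The pipeline was tested on simulated data.

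Named genes are the 8 largest rises and 8 largest falls among called members with at least 1 CPM in the higher group and no overlap between groups, the 4 most abundant, the member with the lowest adjusted p in each run of at least 5 tested members, TRIM28, SETDB1, ZNF274 and the 6 co-repressor genes with the lowest adjusted p. Others are said to be named after their values were seen. The members and lists were chosen with earlier results of these data known. A leukocyte marker of the list is not reported here.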

Additional observations from a re-analysis of the deposited data

How the results depend on the processing

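With library size only, 85 members were higher and 12 lower (median 0.27), 15 and 1 on 19p (median 0.20), 70 and 11 on 19q (median 0.27), and 19 and 5 among co-repressor genes. With the GC trend removed, 29 were higher and 38 lower (median −0.018), where 53.2% of all tested genes were called. On 19p it was 2 and 8 (median −0.12) and on 19q 27 and 30 (median 0.0067). Of the co-repressor genes 5 were then higher and 12 lower. With GC, length and abundance trends removed, 23 members were higher and 45 lower (median −0.087), where 52.2% of all tested genes were called. On 19p it was 2 and 9 (median −0.14) and on 19q 21 and 36 (median −0.054). Of the co-repressor genes 9 were then higher and 6 lower. With the abundance trend removed the medians were 0.027 for all members and 0.027 on 19q. DESeq2 called 5 19p members higher and 4 lower. The median was 0.037 with no filter on low counts, and that of 19p was 0.046 at a mean of at least 1 CPM and 0.091 without members sharing over 25% of exon bases or of 50-base words, the last chosen after seeing the data. Why these values moved was not tested.

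With 1 library left out at a time, 39 to 47 members were higher and 24 to 38 lower, with medians from 0.031 to 0.049. On 19p it was 5 to 8 and 3 to 7, with medians from 0.0076 to 0.143, and on 19q medians ran from 0.027 to 0.056. A lone library was then assumed to vary like the other group. Deviations of same-numbered libraries correlated at 0.0023 over 18046 genes. With 2 libraries per group this value cannot tell whether same-numbered libraries were handled together, and the labels leave it unsaid. A replicate block gave 51 higher and 33 lower.

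Of 429 settings of named genes, 389 kept direction and call, 25 no longer passed, 1 newly passed and 14 changed direction. In 5 of the last neither fit passed: ZNF580 (0.072), SETDB1 (0.036) and ZNF274 (0.049) with all 3 trends removed, and SETDB1 (0.060) and ZNF274 (0.074) with the GC trend removed. The other 9 were ZNF146 (0.071 with library size only, 0.027 with the abundance trend removed), ZNF580 (0.12), SETDB1 (0.15) and ZNF274 (0.16) with library size only, ZNF302 (−0.24 with either GC correction), and TRIM28 (0.15 and 0.17 with abundance among the trends removed). In 16 of 33 named genes the call was the same in every setting. Depth limits genes near 0.0800 to 0.0894 CPM on the TMM scale, where 3 counts lie, and 2 libraries per group limit every estimate of spread.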
